A study of Mus musculus with 2 samples.

Results

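Interferon-responding CD8 T cells were taken as the T cells in which at least 3 of 7 interferon-induced genes (Ifit1, Ifit3, Ifit3b, Rsad2, Usp18, Oasl1 and Cxcl10) were detected by 1 or more unique molecular identifiers (UMIs, the tags that count single captured transcripts). The rule kept 119 of 5488 T cells, 36 of 2991 in the parous library and 83 of 2497 in the virgin library. A T cell was a barcode with at least 500 genes, at least 1000 UMIs, under 10% mitochondrial UMIs and at least 1 UMI of Cd3d, Cd3e or Cd3g. These 119 cells are called the interferon set below, and the remaining T cells the other T cells.

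The cells were sorted as live CD45+ TCRB+ CD8a+ cells from mammary fat pad number 4 of untreated C57BL/6 mice, and their 5′ transcript ends were counted by droplet sequencing. The parous library, labelled Multiparous, and the virgin library were each pooled from at least 5 mice; no mouse of either group carried a transgene or treatment that the labels name, and no source used here gives the ages. With 1 library per group and no map from cells to mice, no test between groups was possible: every interval below covers counting error only, and parity cannot be told apart from any other difference between the 2 libraries. The parous library held 14676415 UMIs in 4927 barcodes and the virgin library 20166425 UMIs in 2526 barcodes, and the median T cell held 4116 UMIs in the parous library, against 7005 UMIs in the virgin library. In all, 18 barcodes occurred in both libraries, 14 of them as T cells and 1 of them as a virgin member of the interferon set.

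Type I interferons bind the receptor made of Ifnar1 and Ifnar2, and its kinases Jak1 and Tyk2 activate a complex that contains Stat2 and Irf9. The complex binds the interferon-stimulated response element, a promoter motif built on a repeated GAAA core, and so switches on genes that block viral replication, sense foreign nucleic acid and tag proteins with Isg15. Interferon gamma, made by T cells themselves, acts through its own receptor and induces an overlapping set that includes guanylate-binding proteins, Irf1 and Cxcl10.

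The promoter windows of 5 genes that chose the cells are shown because they hold the repeated core that the interferon-activated complex binds. The sequences are from RefSeq (GRCm38.p6), run 5′ to 3′ on the strand of the gene from 250 bases before its start to 50 bases after it, and capitals mark each match to GAAANNGAAA or, on the other strand, TTTCNNTTTC. Isg15, which was not part of the rule, is printed for comparison. The windows of Ifit2, Oasl2, Cmpk2 and Irf7, also induced genes outside the rule, held no match and are not printed.
Ifit1: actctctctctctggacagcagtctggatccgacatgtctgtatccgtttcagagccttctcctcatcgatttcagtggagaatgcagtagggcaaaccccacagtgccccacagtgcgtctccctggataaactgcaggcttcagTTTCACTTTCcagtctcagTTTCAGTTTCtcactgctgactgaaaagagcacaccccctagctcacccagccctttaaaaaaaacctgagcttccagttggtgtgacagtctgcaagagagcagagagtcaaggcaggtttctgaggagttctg
Ifit3: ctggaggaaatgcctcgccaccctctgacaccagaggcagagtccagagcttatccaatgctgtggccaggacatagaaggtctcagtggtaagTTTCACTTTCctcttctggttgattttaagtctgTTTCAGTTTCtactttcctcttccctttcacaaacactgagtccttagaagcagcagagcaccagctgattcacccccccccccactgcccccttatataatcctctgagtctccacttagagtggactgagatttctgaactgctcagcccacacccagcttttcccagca
Ifit3b: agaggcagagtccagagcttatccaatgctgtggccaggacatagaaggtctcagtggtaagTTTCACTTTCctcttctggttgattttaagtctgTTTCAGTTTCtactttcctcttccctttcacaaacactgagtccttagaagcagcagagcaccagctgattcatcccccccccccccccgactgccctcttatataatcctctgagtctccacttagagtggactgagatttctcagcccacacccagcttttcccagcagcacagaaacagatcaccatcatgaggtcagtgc
Rsad2: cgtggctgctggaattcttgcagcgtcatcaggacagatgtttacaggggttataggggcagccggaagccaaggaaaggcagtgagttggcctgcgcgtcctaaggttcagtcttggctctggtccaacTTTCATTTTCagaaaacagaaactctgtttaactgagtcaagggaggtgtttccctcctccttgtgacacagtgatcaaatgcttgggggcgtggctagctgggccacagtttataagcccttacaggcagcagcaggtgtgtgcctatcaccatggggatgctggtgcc
Cxcl10: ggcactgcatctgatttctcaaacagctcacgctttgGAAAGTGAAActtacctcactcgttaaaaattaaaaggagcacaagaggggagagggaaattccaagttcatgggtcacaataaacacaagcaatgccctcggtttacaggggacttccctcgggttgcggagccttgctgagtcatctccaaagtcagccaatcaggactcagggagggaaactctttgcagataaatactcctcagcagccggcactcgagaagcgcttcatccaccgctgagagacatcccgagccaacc
Isg15: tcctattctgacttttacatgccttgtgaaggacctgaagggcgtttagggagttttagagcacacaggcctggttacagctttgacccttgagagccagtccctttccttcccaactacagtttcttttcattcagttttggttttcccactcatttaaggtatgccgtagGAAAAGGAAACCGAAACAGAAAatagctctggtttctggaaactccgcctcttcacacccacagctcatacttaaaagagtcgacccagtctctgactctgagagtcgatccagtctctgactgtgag

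The Ifit1 window lies at chr19:34640639-34640938 (plus strand), with matches that begin 104 and 85 bases before the start. The Ifit3 window lies at chr19:34583279-34583578 (plus strand), with matches at 156 and 122 bases before the start, and the Ifit3b window at chr19:34607707-34608006 (plus strand), with matches at 188 and 154 bases before it. The Rsad2 window lies at chr12:26456403-26456702 (minus strand), with its match 120 bases before the start, and the Cxcl10 window at chr5:92348840-92349139 (minus strand), with its match 213 bases before the start. The Isg15 window at chr4:156200769-156201068 (minus strand) held 3 matches that overlap one another, beginning 78, 72 and 66 bases before the start. The Ifit3 and Ifit3b windows shared an unbroken run of 169 bases, so these are near copies whose reads may have been split between them, and their separate values are uncertain. The Oasl1 window held no match, and Usp18 had no window.

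Among 27025 mouse genes with a window, 3.99% held a match on either strand. Matches were found in 5 of 6 genes of the rule with a window and in 44 of 101 (43.6%) of the other listed interferon-induced genes. Of the listed genes that were at least 2-fold higher in the interferon set in both libraries, 14 of 27 with a window (51.9%) held a match, and of those measured in both libraries that were not, 5 of 27 (18.5%) did. None of 8 genes of the naive list with a window did, and 4 of 11 of the cytotoxic granule list did. A match describes the letters of the window and not a bound site, and a window with no match says nothing about binding elsewhere.

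The genes of the rule were high in the set because they chose it, so their values are given as a description with no test. Levels are given as CPM, the UMIs of a gene summed over a group of cells per 1000000 UMIs of those cells, and intervals are exact 95% Poisson intervals. Ifit1, which binds viral RNA that lacks the cap marks of host messages, stood at 767 CPM (643 to 908) in the parous set, against 6.30 CPM in the other parous T cells. In the virgin library Ifit1 stood at 317 CPM (281 to 355) in the set, against 7.21 CPM in the other T cells. It was detected in 86.1% of parous and 86.7% of virgin members, with 134 UMIs over the 36 parous and 292 UMIs over the 83 virgin members. Its UMIs per cell were thus close. The members also differed in depth, at a median of 4617 UMIs in the parous and 7589 UMIs in the virgin set. The part of depth in the difference of CPM was not tested. Ifit3, which stabilises the Ifit1 complex in human cells, stood at 664 CPM (549 to 796) in the parous set and 336 CPM (300 to 376) in the virgin set, and Ifit3b at 160 CPM (106 to 232) in the parous set and 101 CPM (81.4 to 124) in the virgin set.

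Rsad2, also called viperin, makes a nucleotide that stops viral polymerases. It stood at 452 CPM (358 to 564) in the parous set and 84.6 CPM (66.8 to 106) in the virgin set, and was detected in 75.0% of parous and 45.8% of virgin members. Usp18 removes Isg15 from proteins and damps signalling at the interferon receptor; it stood at 366 CPM (282 to 468) in the parous set and 194 CPM (167 to 225) in the virgin set. Oasl1, an oligoadenylate synthetase-like inhibitor of Irf7 translation, was the sparsest, at 74.4 CPM in 27.8% of parous members and 31.4 CPM in 16.9% of virgin members. Cxcl10, the chemokine that draws Cxcr3-bearing T cells, was detected in 44.4% of parous and 36.1% of virgin members. It stood at 1042 CPM (896 to 1204) in the parous set and 307 CPM (272 to 345) in the virgin set. Its UMIs were concentrated: the 5 members with the most held 71.4% of its parous and 70.0% of its virgin UMIs. All 7 genes had higher levels in the parous set than in the virgin set.

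**Figure D1:**
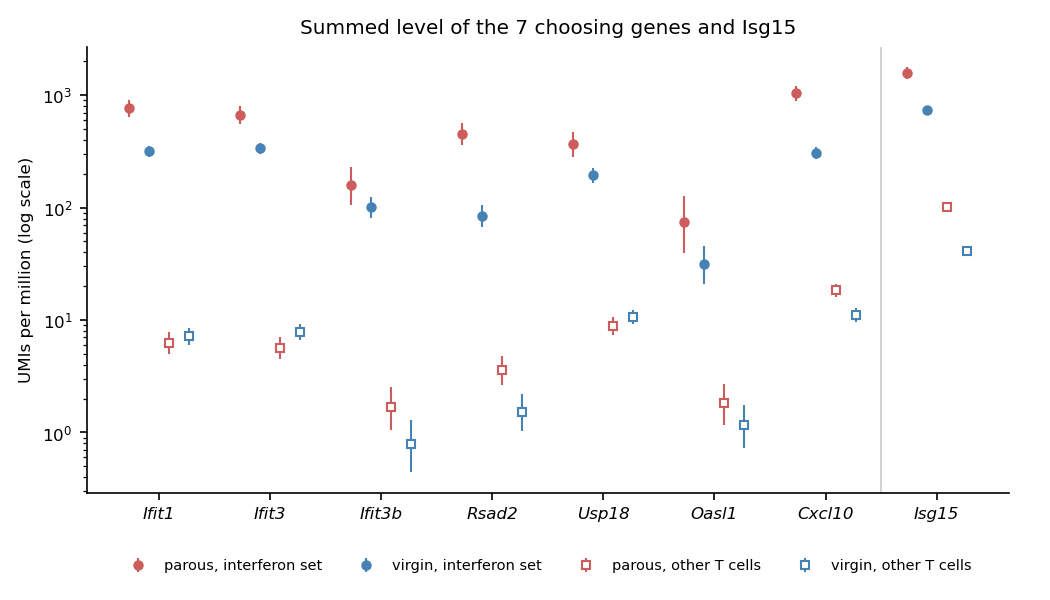
Levels of the 7 genes of the rule and of Isg15 (CPM, log axis) in the interferon set (filled points) and in the other T cells (open points) of the parous and virgin libraries, with exact 95% Poisson intervals as bars; the vertical line sets Isg15 apart. The set lies far above the other T cells for the genes of the rule, as the rule makes it, and Isg15, which the rule did not use, stands at 1574 CPM in the parous set and 739 CPM in the virgin set, against 102 and 41.4 CPM in the other parous and virgin T cells.

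In the parous library the 7 genes were lower in T cells outside the set than in barcodes that failed the cell filter. The size of this gap depends on the rule, which took the members out of the T cells. Barcodes that failed the filter may hold free RNA and broken cells, but their content was not tested. The 36 parous members held 616 UMIs of these genes, and the 2955 other parous T cells 610. Summed, they stood at 3526 CPM in the parous set and 46.3 CPM (42.7 to 50.1) in the other parous T cells, while the 1908 parous barcodes that failed the cell filter, with a median of 600 UMIs, held them at 119 CPM (100 to 140). In the virgin library they stood at 1370 CPM in the set and 40.2 CPM (37.4 to 43.2) in the other T cells, and the 15 barcodes that failed held only 2 such UMIs. Free RNA as a source of UMIs of these genes, in members or in other T cells, was not tested. No parous barcode that failed the filter held 3 or more of the 7 genes. Their depth was too low for that count to bear on the question. Of parous T cells thinned at random to 1400 UMIs, 17 of 2872 (0.592%) held 3 or more.

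The step across the threshold was visible in genes the rule did not use. Among 130 other listed interferon-induced genes, the summed level was 20103, 22539 and 28565 CPM in parous cells with 0, 1 and 2 genes of the rule, and 40059 CPM in those with 3. In the virgin library it was 21420, 23490 and 29216 CPM in cells with 0, 1 and 2 genes, and 42851 CPM in those with 3. Just outside the threshold lay 47 parous and 69 virgin cells, with Isg15 at 322 CPM in parous ones and 175 CPM in virgin ones, and just inside lay 12 parous and 39 virgin cells, with Isg15 at 1085 CPM in parous ones and 479 CPM in virgin ones. Isg15 went on to 3390 CPM in the 2 parous cells with all 7 genes and 1076 CPM in the 3 virgin cells with all 7. The summed level of the 130 genes was 59841 CPM in those 2 parous cells, and 47516 CPM in those 3 virgin cells. The levels did not climb at every step, since the 9 parous cells with 4 genes held 34538 CPM.

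**Figure D2:**
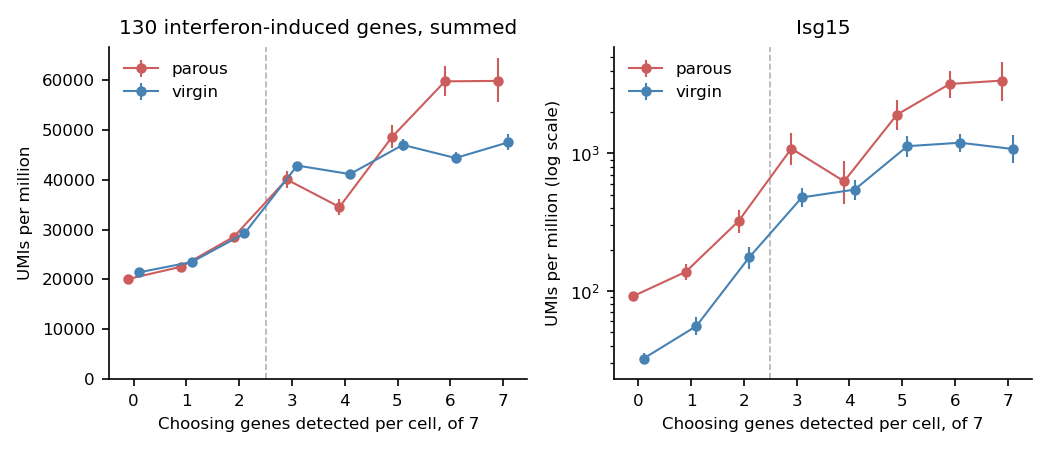
Summed level of 130 interferon-induced genes outside the rule and level of Isg15 (CPM, exact 95% Poisson intervals as bars) in T cells grouped by how many of the 7 genes of the rule were detected, for the parous and virgin libraries. The dashed line marks the threshold between 2 and 3 genes, across which Isg15 stood at 322 and 1085 CPM in the parous library and at 175 and 479 CPM in the virgin library.

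Cell by cell, the range of the members overlapped that of the other T cells. The summed level of the 130 genes had a median of 42114 CPM over the 36 parous members (25493 to 76945), against 19961 CPM over the other parous T cells. It had a median of 47209 CPM over the 83 virgin members (21561 to 123385), against 21389 CPM over the other virgin T cells. At or above the 90th percentile of the other T cells lay 31 of 36 parous and 65 of 83 virgin members, and 33 other parous T cells (1.12%) and 26 other virgin T cells (1.08%) reached the median of the members. A member held UMIs of a median of 62 of these genes in parous and 70 in virgin cells, against 27 in the other parous and 37 in the other virgin T cells.

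A set chosen by 6 other interferon-induced genes (at least 3 of Ifit2, Cmpk2, Ifi44, Rtp4, Oas3 and Irf7) held 206 T cells, 55 parous and 151 virgin. It shared 88 cells with the interferon set, which is 73.9% of the interferon set and 42.7% of the other. In the parous library 23 cells were shared (63.9% of the interferon set), and in the virgin library 65 (78.3%).

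By the rule as written, the set made up 1.2% of the parous T cells (exact 95% binomial interval 0.844 to 1.66) and 3.32% of the virgin T cells (2.66 to 4.10). The parous share was 0.362 times the virgin share (0.238 to 0.542). This ratio moved with depth. After each cell was thinned at random to 2500 UMIs, with 431 parous and 78 virgin shallower cells left out, the set held 26 of 2560 parous cells (1.02%) and 34 of 2419 virgin cells (1.41%), a ratio of 0.723. At 1400 UMIs per cell, with 119 parous and 12 virgin cells left out, it held 17 of 2872 parous cells (0.592%) and 15 of 2485 virgin cells (0.604%), a ratio of 0.981. These ratios come from 1 random draw each. Over 10 further random draws the ratio of parous over virgin lay between 0.638 and 0.844 at 2500 UMIs (median 0.663). At 1400 UMIs it lay between 0.577 and 1.17 (median 0.865). At 1400 UMIs a median of only 16 parous and 16 virgin cells stayed in the set over the draws. Counts so low cannot tell a lower parous share from an equal one. At 2500 UMIs the parous share was the lower in every draw. The intervals of the 2 shares (0.664 to 1.48% parous, 0.975 to 1.96% virgin) overlapped there.

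The single genes did not follow 1 pattern between libraries. At 2500 UMIs per cell, Ifit3 was detected in 2.34% of parous and 3.93% of virgin T cells, and Usp18 in 2.30% of parous and 3.6% of virgin T cells. Rsad2 went the other way, being detected in 1.52% of parous (1.09 to 2.08) and 0.868% of virgin T cells (0.538 to 1.32). At this depth so did Oasl1, in 0.859% of parous (0.539 to 1.30) and 0.413% of virgin T cells (0.198 to 0.759). The intervals overlapped for both genes. At 1400 UMIs per cell Rsad2 kept its direction (0.870% parous, 0.684% virgin), while Oasl1 was close to equal (0.279% parous, 0.282% virgin). With all UMIs both were lower in parous T cells (Rsad2 2.34% parous, 2.48% virgin, Oasl1 1.07% parous, 1.40% virgin). The levels over all T cells need no threshold. They had the directions seen at 2500 UMIs for Ifit3 (14.3 CPM parous, 23 CPM virgin) and Usp18 (13.6 CPM parous, 19.1 CPM virgin). Rsad2 did too (9.44 CPM parous, 5.37 CPM virgin), and Oasl1 was close between libraries (2.77 CPM parous, 2.56 CPM virgin). Isg15 over all T cells stood at 121 CPM in the parous library and 73.7 CPM in the virgin library, and Cxcl10 at 31.8 CPM in parous and 24.8 CPM in virgin T cells.

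The set held a large part of the UMIs of the genes that chose it, as the rule makes it. The parous set held 1.31% of the UMIs of its library's T cells. Of the 7 genes of the rule it held from 35.1% (Oasl1) to 62.7% (Rsad2) of the UMIs, with 61.8% for Ifit1. The virgin set held 4.63% of all UMIs. Of the 7 genes it held from 47.0% (Usp18) to 86.1% (Ifit3b), with 68.1% for Ifit1 and 72.9% for Rsad2. Of Isg15, which did not choose the cells, the parous set held 17.0% and the virgin set 46.5%. Bst2 was spread more widely, with 7.0% of its parous and 19.9% of its virgin UMIs in the set.

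**Figure D3:**
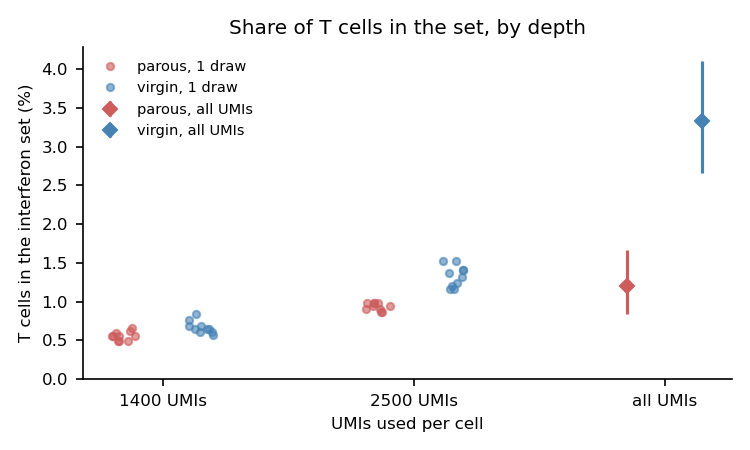
Share of T cells in the interferon set (percent) in the parous and virgin libraries after thinning every cell to 1400 or 2500 UMIs (each dot 1 of 10 random draws) and with all UMIs (diamonds, bars for exact 95% binomial intervals). The draws overlap at 1400 UMIs (0.487 to 0.662% parous, 0.563 to 0.845% virgin), lie apart at 2500 UMIs (0.859 to 0.977% parous, 1.16 to 1.53% virgin) and the shares are 1.2% parous and 3.32% virgin with all UMIs.

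The rest of the interferon program stood higher in the set in both libraries. A gene was counted as measured when its share of all T cell UMIs predicted at least 5 UMIs in the set, and as higher or lower at a 2-fold difference of summed CPM (log2 ratio with 0.5 added to each count). In the parous library 44 of 69 measured interferon-induced genes outside the rule were at least 2-fold higher in the set and none was 2-fold lower; their median log2 ratio was 1.49, where 2.95% of all 4299 measured genes were higher and the median over all was -0.04. In the virgin library 72 of 111 were higher and none lower, with a median log2 ratio of 1.57, where 3.83% of all 9088 measured genes were higher and the median over all was 0.10. In both libraries at once 36 of 69 were higher, where 1.23% of 4295 genes measured in both were. The same cells and libraries gave the rule and these values, so the counts describe the chosen cells.

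The antiviral effectors stood higher as a group. Of those measured, 9 of 12 were at least 2-fold higher in the parous set and 17 of 21 in the virgin set. Isg15, the ubiquitin-like tag itself, was detected in 100% of parous and 90.4% of virgin members, against 25.8% of the other parous and 17.0% of the other virgin T cells. Bst2, called tetherin because it holds budding viruses at the cell surface, stood at 727 CPM (606 to 865) in the parous set and 128 CPM in the other parous T cells, and at 637 CPM (587 to 691) in the virgin set and 124 CPM in the other virgin T cells. Ifi27l2a stood at 1305 CPM in the parous set against 411 CPM in the other T cells, and 2059 CPM in the virgin set against 400 CPM in other virgin T cells. Samhd1, which depletes the nucleotides that viruses need, stood at 618 CPM in the parous set against 141 CPM in other parous T cells, and 475 CPM in the virgin set against 192 CPM in other virgin T cells.

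The sensors of foreign nucleic acid followed, with 8 of 10 measured higher in the parous set and 10 of 14 in the virgin set. Zbp1, a sensor of Z-form nucleic acid, stood at 475 CPM (378 to 589) in the parous set and 48.9 CPM in the other T cells, and at 358 CPM (320 to 399) in the virgin set and 55.7 CPM in the other T cells. Ifi206, of the family of DNA-binding Ifi200 proteins, stood at 401 CPM in the parous set against 43.8 CPM in other parous T cells, and 311 CPM in the virgin set against 80.2 CPM in other virgin T cells. The Ifi200 family genes are close copies of each other, so the split of reads among them is uncertain.

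The interferon-inducible GTPases, which attack the vacuoles of intracellular microbes, were higher in 7 of 7 measured in the parous set and 16 of 17 in the virgin set. Ifi47 stood at 710 CPM (590 to 846) in the parous set against 117 CPM in other parous T cells, and 568 CPM (520 to 619) in the virgin set against 172 CPM in other virgin T cells. Igtp stood at 212 CPM (149 to 292) in the parous set against 33.3 CPM in other parous T cells, and 216 CPM (187 to 248) in the virgin set against 44.9 CPM in other virgin T cells. These genes respond strongly to interferon gamma as well as to type I interferons, and the lists hold genes induced by either.

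Among the transcription factors, 6 of 10 measured were higher in the parous set and 6 of 12 in the virgin set. Irf7, the amplifier of type I interferon production, stood at 504 CPM (404 to 621) in the parous set against 80.1 CPM in other parous T cells, and 387 CPM (348 to 429) in the virgin set against 76.2 CPM in other virgin T cells. Irf1 stood at 549 CPM in the parous set against 216 CPM in other parous T cells, and 498 CPM in the virgin set against 253 CPM in other virgin T cells, log2 ratios of 1.36 and 0.98. Irf1 differed less than Irf7 in both libraries.

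The smaller groups were mixed. The ligases and enzymes of Isg15 conjugation were higher in 1 of 1 measured in the parous set and 4 of 4 in the virgin set; Herc6, the mouse Isg15 ligase, stood at 258 CPM in the parous set against 26.0 CPM in other parous T cells and 132 CPM in the virgin set against 31.8 CPM in other virgin T cells. The PARP and DTX3L list was higher in 2 of 2 measured in the parous set and 6 of 7 in the virgin set. The Schlafen, Ly6, Ms4a and Phf11 list was higher in 6 of 8 measured in the parous and 9 of 13 in the virgin set; Ly6a, also called Sca-1, stood at 492 CPM in the parous set against 107 CPM in other parous T cells and 742 CPM in the virgin set against 143 CPM in other virgin T cells. Of the oligoadenylate synthetases and RNase L, which degrade viral RNA, none passed the measure in the parous set and 3 of 4 were higher in the virgin set.

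Antigen presentation by MHC class I had smaller median ratios than the groups above, with median log2 ratios of 0.62 parous and 0.58 virgin. Of 19 genes, 5 were at least 2-fold higher in the parous set, above the background of 2.95%. In the virgin set 1 of 19 was, close to the background of 3.83%. H2-K1 stood at 3079 CPM in the parous set against 2824 CPM in other parous T cells, and 3590 CPM in the virgin set against 2743 CPM in other virgin T cells, and B2m at 3600 CPM in the parous set against 2815 CPM in other parous T cells, and 3389 CPM in the virgin set against 2561 CPM in other virgin T cells. Reads of the classical H2 genes can be split among near copies. H2-T22 was the 1 gene of the list that was 2-fold higher in both libraries.

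**Figure D4:**
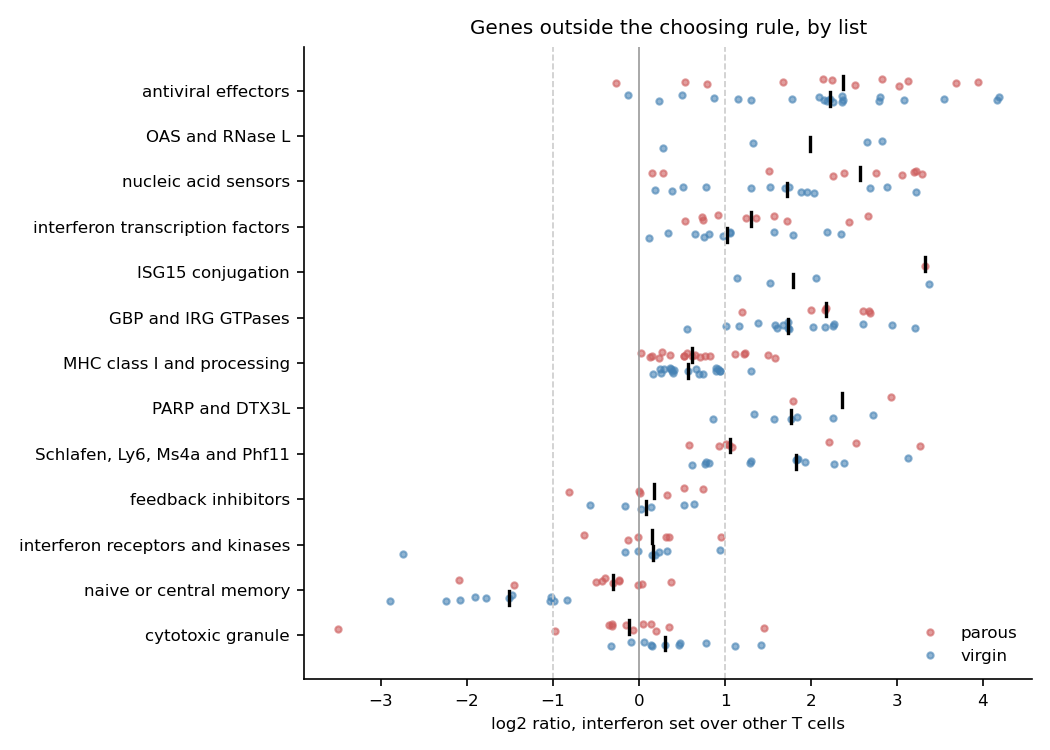
Log2 ratio of the interferon set over the other T cells for each measured gene (points) of the listed groups in the parous and virgin libraries, with the median of each group as a tick and dashed lines at 2-fold. Interferon-inducible GTPases, antiviral effectors and nucleic acid sensors lie mostly above 2-fold in both libraries (for the GTPases 7 of 7 parous and 16 of 17 virgin genes), while the feedback inhibitors lie within 2-fold, as do the receptors and kinases apart from Ifngr2 in the virgin library (-2.74).

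The listed receptors, kinases and feedback inhibitors were mostly within 2-fold of the other T cells. Usp18, which damps receptor signalling, is a gene of the rule and is not among these inhibitors. None of 6 measured receptors and kinases in the parous set was 2-fold higher (background 2.95%), and none of 8 in the virgin set (background 3.83%). Counts over so few genes cannot be told from those shares. Ifngr2, a chain of the interferon gamma receptor, was lower in the virgin set (5.42 CPM, against 39.9 CPM in other virgin T cells). Ifngr2 was also a leading gene of the naive or central memory-like cluster described further on, which held 4.82% of the virgin members and 39.6% of all virgin T cells, and the part of that in its level was not tested. Ifnar1 stood at 97.3 CPM (56.7 to 156) in the parous set against 80.3 CPM in other parous T cells, and 95.4 CPM (76.5 to 118) in the virgin set against 86.6 CPM in other virgin T cells. Ifnar2 stood at 74.4 CPM (39.6 to 127) in the parous set against 120 CPM in other parous T cells, and 125 CPM (103 to 150) in the virgin set against 110 CPM in other virgin T cells. None of 6 feedback inhibitors was 2-fold apart in either library (background 2.95% higher and 6.84% lower parous, 3.83% and 4.39% virgin). Socs1, which blocks the Jak kinases, stood at 532 CPM in the parous set against 320 CPM in other parous T cells. In the virgin library it stood at 305 CPM in the set against 196 CPM in the other T cells.

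Of the interferons themselves, only Ifng was detected, and the 9 listed type I and type III genes had no UMI in any T cell. Ifng was detected in 18 of 36 parous members and 60 of 83 virgin members (72.3%), against 29.8% of the other parous and 37.4% of the other virgin T cells. Its level was 206 CPM (144 to 285) in the parous set against 148 CPM in other parous T cells, and 312 CPM (277 to 350) in the virgin set against 178 CPM in other virgin T cells, under 2-fold in both.

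Among genes outside every list, those most raised in both libraries were ranked by the smaller of the 2 log2 ratios. The leading 15 were Serpina3f, Pml, Ddx60, Hsh2d, Tmem140, Mov10, Ccrl2, Trim12c, Nampt, Daxx, Trafd1, Ifi214, Tmem184b, Jaml and Naa20. Pml, the scaffold of the nuclear bodies that restrict viruses, stood at 183 CPM (125 to 259) in the parous set against 19.7 CPM in other parous T cells, and 117 CPM (96.1 to 141) in the virgin set against 23.1 CPM in other virgin T cells. Daxx, a partner of Pml in those bodies, stood at 235 CPM (168 to 318) in the parous set against 21.1 CPM in other parous T cells, and 118 CPM (97.0 to 143) in the virgin set against 34.7 CPM in other virgin T cells. The motif of the promoter windows above was found in 5 of these 15 genes.

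At the other end, 14 of 4295 genes (0.326%) were at least 2-fold lower in both libraries. Id3, an inhibitor of E proteins that marks long-lived memory precursors, had 1 UMI in each set, 5.72 CPM in the parous set against 35.9 CPM in other parous T cells and 1.08 CPM in the virgin set against 32.9 CPM in other virgin T cells. Ikzf2, which encodes Helios, stood at 17.2 CPM (3.54 to 50.2) in the parous set against 106 CPM in other parous T cells, and 17.3 CPM (9.92 to 28.2) in the virgin set against 39.3 CPM in other virgin T cells. Dtx1, a Notch pathway ligase, stood at 17.2 CPM (3.54 to 50.2) in the parous set against 43.6 CPM in other parous T cells, and 6.5 CPM (2.39 to 14.2) in the virgin set against 28.7 CPM in other virgin T cells. The motif was in none of the 14 of the 15 lowest genes that had a window.

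The members carried the markers of CD8 T cells. Cd3e stood at 1093 CPM in the parous set against 1075 CPM in other parous T cells, and 990 CPM in the virgin set against 1012 CPM in other virgin T cells. Cd8a was detected in 83.3% of parous and 92.8% of virgin members. It stood at 584 CPM in the parous set against 548 CPM in other parous T cells, and 709 CPM in the virgin set against 549 CPM in other virgin T cells (fold 1.29, 1.19 to 1.40). Cd8b1 was detected in 91.7% of parous and 98.8% of virgin members, and stood at 1145 CPM in the parous set against 869 CPM in other parous T cells (fold 1.32, 1.14 to 1.51), and 1186 CPM in the virgin set against 1166 CPM in other virgin T cells. Of the 29 parous members with an assigned T cell receptor beta V segment, 15 segments were in use, and 18 segments in 73 virgin members; Trbv3, Trbv29 and Trbv31 were each in 3 parous members. The most frequent in the virgin set was Trbv3, in 13 members (17.8%, 9.84% to 28.5%), against 8.09% of the other virgin T cells with an assigned segment.

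Naive genes stood below their level in the other T cells mainly in the virgin library. In the parous library 2 of 11 naive or central memory genes were at least 2-fold lower in the set (background 6.84%), with a median log2 ratio of -0.30, and in the virgin library 9 of 11 were (background 4.39%), with a median of -1.52. Ccr7, the lymph node homing receptor, stood at 240 CPM (173 to 325) in the parous set against 327 CPM in the other parous T cells, and 124 CPM (102 to 148) in the virgin set against 524 CPM in the other virgin T cells. The naive genes of the other T cells themselves differed between libraries, since 16.2% of parous and 39.6% of virgin T cells lay in the naive-like cluster described next.

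Ly6c2, which is high on memory T cells and responds to interferon, stood at 2364 CPM (2141 to 2603) in the parous set against 1147 CPM in other parous T cells, and 3091 CPM (2978 to 3207) in the virgin set against 1260 CPM in other virgin T cells. It was the 1 of 5 virtual memory genes that was 2-fold higher in each library. Itgae, the integrin CD103 of epithelial residence, was detected in 1 parous member (2.78%) and 2 virgin members (2.41%), against 19.1% of the other parous and 10.9% of the other virgin T cells. It was the 1 gene of the resident list that was 2-fold lower in both libraries, as were 0.326% of all genes measured in both. Of the resident genes measured, 6 of 9 in the parous and 10 of 11 in the virgin library were within 2-fold. The summed level of all 12 listed was 2507 CPM in the parous set against 2471 CPM in other parous T cells, and 1723 CPM in the virgin set against 1582 CPM in other virgin T cells. Cd69, which interferon also induces, stood at 761 CPM (637 to 902) in the parous set against 334 CPM in other parous T cells, and 549 CPM (502 to 599) in the virgin set against 620 CPM in other virgin T cells, so its direction differed between libraries.

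To place the members among T cell states, all T cells were clustered without the interferon-induced genes, with the virgin cells thinned to the parous median depth. Clusters were named from listed markers, as X-like, and numbered where 2 share a name. The virtual memory-like cluster held the most members, 15 of its 576 parous cells (2.60%) and 28 of its 471 virgin cells (5.94%). The Exhausted or Gzmk-like cluster 4 held 5 of 174 parous cells (2.87%) and 21 of 277 virgin cells (7.58%). Its leading genes were Epha3, Ier3, Maf, Ptpn13 and Rasgef1b, followed by Ifit1, a gene of the rule that was kept out of the clustering, and then by Prr5l and Gzmk. The naive or central memory-like cluster held few, 2 of 485 parous cells (0.412%) and 4 of 989 virgin cells (0.404%), although it made up 16.2% of parous and 39.6% of virgin T cells.

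The resident-like cluster lay between, holding 3 of its 135 parous cells (2.22%) and 8 of its 202 virgin cells (3.96%). The Innate-like cluster 3, with Ly49 genes among its leading genes, held 5 of 348 parous (1.44%) and 5 of 191 virgin cells (2.62%), and the Innate-like cluster 6, with Fcer1g and Tyrobp among them, held 1 of 315 parous cells and 0 of 3 virgin cells. The Exhausted or Gzmk-like cluster 2, led by Adgrg1, Ckb and Cdh1, held 5 of 645 parous cells (0.775%) and 0 of 34 virgin cells (exact upper limit 10.3%). The Circulating effector-like cluster held 0 of 86 parous cells (exact upper limit 4.2%) and 3 of 166 virgin cells (1.81%). The intervals of most of these shares overlap.

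Depth differed between clusters too. The Cycling-like cluster held 0 of 67 parous cells (exact upper limit 5.36%) and 12 of 119 virgin cells (10.1%), and its virgin cells had a median of 18076 UMIs, against 7005 UMIs over all virgin T cells. With members chosen after thinning to 2500 UMIs, it held 0 of 65 parous cells and 2 of 118 virgin cells (1.69%). At that depth the Exhausted or Gzmk-like cluster 4 held 5 of 133 parous cells (3.76%) and 10 of 260 virgin cells (3.85%), and the virtual memory-like cluster 9 of 531 parous cells (1.69%) and 15 of 463 virgin cells (3.24%). The naive-like cluster then held 2 of 449 parous cells (0.445%) and 0 of 974 virgin cells (exact upper limit 0.378%). In the virgin library the interval of the naive-like cluster's share lay below the share of all T cells at both depths (0.11% to 1.03% against 3.32%, and up to 0.378% against 1.41%). In the parous library it included the share of all T cells at both depths (0.05% to 1.48% against 1.2%, and 0.054% to 1.6% against 1.02%).

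**Figure D5:**
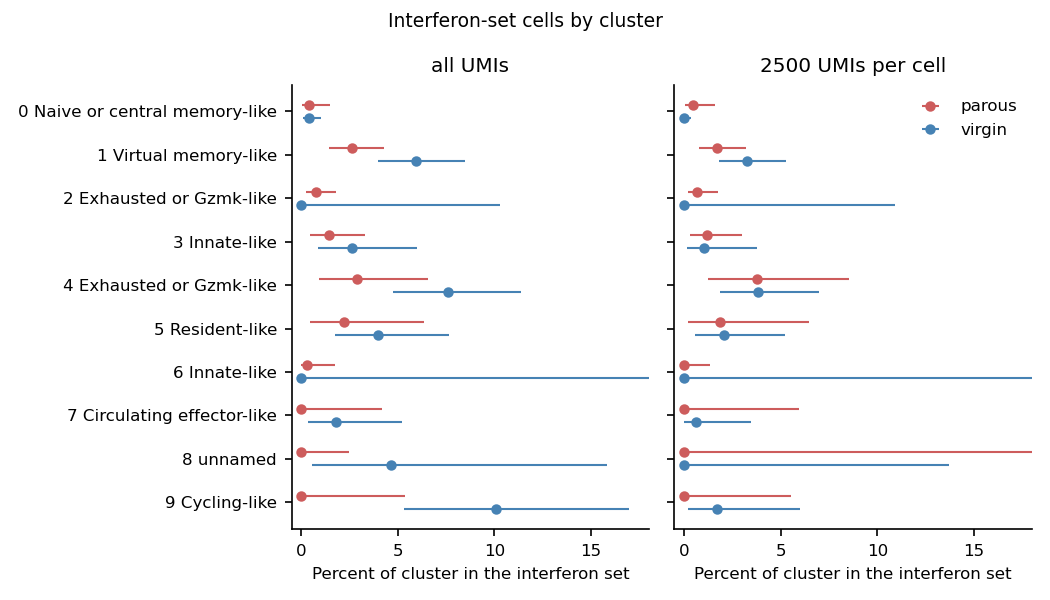
Share of each T cell cluster in the interferon set (percent, exact 95% binomial intervals as bars) in the parous and virgin libraries, with members chosen on all UMIs (left) and after thinning to 2500 UMIs per cell (right); the axis ends at 18%, so wider intervals are cut, and a cluster of 14 cells is not drawn. The Exhausted or Gzmk-like cluster 4 (2.87% parous, 7.58% virgin) and the virtual memory-like cluster (2.60% parous, 5.94% virgin) stand above the naive or central memory-like cluster (0.412% parous, 0.404% virgin) on the left, with intervals that overlap in the parous library.

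When the interferon-induced genes were included, 1 cluster of 92 cells gathered 75 of the 119 members (63.0% of the set and 81.5% of that cluster), 30 of them parous and 45 virgin. The other 44 members lay in other clusters.

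Within the set, parous and virgin members were compared over 6090 genes with at least 20 UMIs over both. In parous members 181 of them (2.97%) stood 2-fold or more above virgin members and 924 (15.2%) stood 2-fold or more below; the median log2 ratio was -0.18. Of 107 interferon-induced genes outside the rule, 8 stood 2-fold higher (background 2.97%) and 1 stood 2-fold lower (background 15.2%); their median log2 ratio was 0.19, where the same genes in the other T cells had a median of -0.25. The 7 genes of the rule had a median log2 ratio of 1.27 (0.69 to 2.42). Rsad2 stood at 2.42 and Cxcl10 at 1.76. Their order turned with equal weight per cell (2.08 for Rsad2 and 2.38 for Cxcl10), without cells over 3 times the median UMIs (2.10 and 2.27), without cells with 2 or more markers of other cell types (2.20 and 2.75) and without the Cycling-like cluster (2.16 and 3.09). A single virgin member held 30.7% of the virgin Cxcl10 UMIs.

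These differences moved with the depth at which cells were chosen. The parous members were shallower, with a median of 4617 UMIs (2319 to 10622), against 7589 UMIs (2441 to 52688) in the virgin members. With members chosen after thinning to 2500 UMIs (26 parous and 34 virgin cells), the median over the genes of the rule was 0.35 and that over the other interferon-induced genes was -0.11. Rsad2 and Cxcl10 stayed apart by log2 ratios of 1.61 and 1.42, and Isg15 by 0.46, against 1.09 before thinning.

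Cell cycle genes were lower in the parous members. At least 2-fold lower were 16 of 18 listed genes (background 15.2%), 8 of which had no UMI there, and the median log2 ratio was -1.95 with those 8 placed at the bound that 3 UMIs over the set allow. Among the other T cells 11 of the 18 stood 2-fold lower in parous cells (background 1.72%, median -1.33). Mki67, the proliferation antigen, was detected in 0 of 36 parous members (exact upper limit 9.74%) and 20.5% of virgin members, at 124 CPM (102 to 148) in the virgin set, and was at least 7.2-fold lower in the parous set. Stmn1, which frees microtubules for the spindle, was at least 14.4-fold lower and Pclaf, a partner of the replication clamp, at least 10.4-fold lower in the parous set. These counts rest on few virgin cells. Without the Cycling-like cluster, which held 12 virgin members and no parous one, 7 of the genes were measured and 2 of them were 2-fold lower in the parous set, with a median of -0.71. With members chosen at 2500 UMIs, 3 of 5 genes measured were 2-fold lower.

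Among the genes ranked highest in parous over virgin members were Fcer1g, Rsad2, Pmepa1, Jmy, Cdkn1a, Cxcl10, Ddb2, Mxd1, Gch1, Frat2 and Fosl2. Fcer1g, the signalling chain of Fc receptors, stood at 160 CPM in the parous set and 14.1 CPM in the virgin set, but 75.0% of its parous UMIs came from 1 cell, and it was also higher in the other parous T cells (383 CPM) than in the other virgin T cells (20.2 CPM). Pmepa1, a target of TGF-beta, stood at 85.9 CPM (48.0 to 142) in the parous set and 18.4 CPM (10.7 to 29.5) in the virgin set, a log2 ratio of 2.23, and in the other T cells its ratio was 2.25. The ranked lowest were Stmn1, Hist1h1b, Pclaf, Hist1h2ae, Ube2c, Mki67, Ccnb2, Cdca3, Ccna2, Lockd, Retnla and Asf1b, all without a UMI in the parous set. All 57 virgin UMIs of Retnla, a product of macrophages, came from 1 cell.

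Members with and without Cxcl10, itself a gene of the rule, were set side by side. A member with Cxcl10 needed fewer of the other genes of the rule to enter the set than a member without it. The rule itself therefore favours lower levels of those other genes, Ifit1 among them, in members with Cxcl10. The 16 parous members with Cxcl10 had Isg15 at 2395 CPM (2069 to 2759), against 878 CPM (699 to 1088) in the 20 without it. The 30 virgin members with Cxcl10 had Isg15 at 808 CPM (727 to 896), against 675 CPM (603 to 753) in the 53 without it. Gbp2, which interferon gamma induces strongly, was detected in 12 of the 16 parous members with Cxcl10 and in 1 of the 20 without, and stood at 254 CPM (210 to 306) in virgin members with Cxcl10 against 137 CPM (106 to 175) in those without. Not all induced genes were higher with Cxcl10 in the virgin set. There Ifit1 stood at 290 CPM with it and 341 CPM without, and Bst2 at 531 CPM with and 738 CPM without. Irf7 stood at 359 CPM with and 413 CPM without, and Ifng at 259 CPM with and 363 CPM without. Isg15 was detected in 83.3% of virgin members with Cxcl10 and 94.3% of those without. Median depth moved with this split, at 4812 UMIs with and 4395 UMIs without Cxcl10 in the parous set and 9870 UMIs with and 6796 UMIs without it in the virgin set, and its part in the difference was not tested.

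Cxcl10 was also detected in 78 other T cells of each library. In these cells Isg15 stood at 109 CPM (80.9 to 144) with against 102 CPM without Cxcl10 in the parous library, and 24.6 CPM (15.4 to 37.3) with against 42.2 CPM without it in the virgin library. Irf7 was likewise not higher. It stood at 58.8 CPM (38.8 to 85.6) in the parous cells with Cxcl10 against 80.8 CPM in those without. In the virgin library it stood at 56.0 CPM (41.6 to 73.8) in cells with Cxcl10 against 77.2 CPM in those without. The rule had already moved into the set the cells with Cxcl10 that held enough of its other genes. Cells without Cxcl10 needed more of those genes to be moved. The levels of Isg15 and Irf7 in this comparison therefore depend on the rule, and no conclusion is drawn from them. Nfkbia, the inhibitor that NF-kappaB itself induces, stood at 856 CPM (774 to 945) in the parous cells with Cxcl10 against 422 CPM in those without, and 657 CPM (605 to 713) in the virgin cells with Cxcl10 against 309 CPM in those without. Irf1 stood at 368 CPM (315 to 428) with against 210 CPM without in the parous library, and 452 CPM (409 to 499) with against 243 CPM without in the virgin library. The share of other parous T cells with Cxcl10 (2.64%, median 4112 UMIs) was close to that of the parous barcodes that failed the cell filter (2.04%, median 600 UMIs), and the part of background in these UMIs was not tested.

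Markers of other cell types were in few members, but in a higher share of virgin members than of the other virgin T cells. At least 2 markers of myeloid, B, epithelial, fibroblast, endothelial, adipocyte or erythroid cells were held by 1 of 36 parous and 13 of 83 virgin members, and by 97 of 2955 other parous and 114 of 2414 other virgin T cells. The 7 myeloid markers summed to 5 UMIs in the parous and 55 UMIs in the virgin set, and the 4 class II genes to 2 UMIs in the parous and 88 UMIs in the virgin set. As levels, the myeloid markers stood at 28.6 CPM in the parous set against 24.8 CPM in other parous T cells, and 59.6 CPM in the virgin set against 19.0 CPM in other virgin T cells. The class II genes stood at 11.4 CPM in the parous set against 27.6 CPM in other parous T cells, and 95.4 CPM in the virgin set against 32.1 CPM in other virgin T cells. B cell, adipocyte and erythroid markers had 0 UMIs in both sets. Over 3 times the median depth of their library lay 0 parous and 9 virgin members, and no caller of doublets was run. Without the cells with 2 or more such markers, the parous share was 0.410 times the virgin share, and without the cells over 3 times the median it was 0.398 times, against 0.362 with all cells. Without the cells with 2 or more such markers, 67 of 106 interferon-induced genes were 2-fold higher in the virgin set (72 of 111 with all cells), and 631 genes were 2-fold lower in parous than in virgin members (924 with all cells).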

How the data were processed

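The deposited files hold, per library, a sparse matrix of UMI counts per gene and cell barcode, made by the authors (Cell Ranger 7.0.0, per the file headers); the submitters' processing notes also name R 4.4.2, Seurat and the build mm10. The counts are raw and were used as deposited, from filtered barcodes. Barcodes kept were 3019 parous and 2511 virgin, of which 2991 and 2497 held a Cd3 UMI. UMIs were summed over cells, scaled to CPM and compared as log2 ratios with 0.5 added to each count. Cells are not replicates, and with 1 library per group no test was run; intervals are exact 95% Poisson or Clopper-Pearson intervals and, like the limits from 3 counts, cover counting error only.

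The members and gene lists were chosen with earlier results of these data known. Of 312 list genes, 6 had no unique row in the matrices and were not analysed here; some genes that the naming rule gives are not reported here. Genes named are the 7 of the rule, up to 6 of each list by level in the set, a fixed set of pathway genes, and ranked genes outside the lists: 15 from each end for the set over other T cells, with at least 10 UMIs in each library and 20 CPM on 1 side, and 12 from each end for parous over virgin members, with at least 30 UMIs. H2-T22, Itgae, Ifngr2, Nfkbia and the splits by Cxcl10 were singled out after their values were seen. The filter of 5 expected UMIs replaced, after the files were seen, a planned 10 UMIs over both sides, which is kept as an alternative. Thinning drew UMIs without replacement (seed 7). Clusters used 2000 variable genes, 30 components, 15 neighbours and Leiden resolution 0.8, without 137 interferon-induced genes and without receptor, ribosomal and mitochondrial genes; the virgin UMIs were thinned to 58.8%. A cluster was named when 3 markers of a type were at least 2-fold higher and in 10% of its cells, thresholds set after the data were seen. No doublets were removed. The ratios were checked on simulated counts with known folds. Motifs were searched in RefSeq promoter windows of 300 bases. Python 3.11.15, numpy 2.4.6, scipy 1.17.1, pandas 2.3.3, scanpy 1.11.5, leidenalg 0.10.2 and matplotlib 3.10.9 were used.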

Additional observations from a re-analysis of the deposited data

Results flagged for a closer look

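The 7 genes of the rule were found in barcodes outside the T cells that the comparisons used. Summed, they stood at 172 CPM (102 to 271) in the 28 parous cells that passed the cell filter without a Cd3 UMI, from 18 UMIs, and at 119 CPM (100 to 140) in the 1908 parous barcodes that failed the filter, from 145 UMIs. In the 14 virgin cells without a Cd3 UMI they stood at 63.0 CPM (35.3 to 104), from 15 UMIs. The other T cells, from which the rule had taken the members, held 46.3 CPM (parous) and 40.2 CPM (virgin). Of the 14 virgin cells without a Cd3 UMI, 1 held 3 or more of the 7 genes, and none of the 28 parous cells did.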

How the results depend on the processing

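The share of T cells in the set (parous over virgin, 0.362) changed with depth, to 0.723 at 2500 UMIs and 0.981 at 1400 UMIs per cell. The medians of the 10 further draws were 0.663 and 0.865. The other alternatives gave 0.304 to 0.456. The median log2 ratio of interferon-induced genes in the set over other T cells was 2.27 (at least 1 UMI) and 2.17 (at least 10 UMIs over both sides, the planned filter) in the parous library, against 1.49, and 1.77 with equal weight per cell in the virgin library, against 1.57. Between parous and virgin members, genes 2-fold higher numbered 410 at 10 UMIs over both libraries, 101 with members chosen at 2500 UMIs and 107 at 5 UMIs expected in the parous members, against 181. Genes 2-fold lower numbered 1413, 270 and 591 in the same alternatives, 612 without cells over 3 times the median UMIs and 562 without the Cycling-like cluster, against 924. Fewer or more genes and cells entered these fits by construction. The median of the interferon-induced genes turned to -0.11 with members chosen at 2500 UMIs, against 0.19; the cause was not tested. Another 43 values of these results kept their direction within the limits set, among them the shares of members in naive or central memory-like clusters at each clustering setting. The random draws, the filter of 5 expected UMIs, the depth cut and the cycling split were added after the data were seen. No paired analysis was possible because each group is 1 library.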
